A study of Mus musculus with 9 samples.

Results

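The genes described here are 10 that encode proteins of the junctions between ECs, among them Pecam1, the gene of the sort antigen CD31. They were taken by name from a table of reads counted on 46078 genes, and all 10 names were found once each. Of the 10, 9 passed the filter on low counts and were among the 15937 genes tested, and Ocln did not pass. Levels were compared between 4 Sca-1+ and 5 Sca-1- RNA-seq libraries of BM cells from wt mice of the B6 strain. Both fractions were sorted as CD45-Ter119-CD31+ cells without treatment and were separated by surface Sca-1, so cells of both were chosen for the protein of Pecam1. The running numbers that open their labels do not overlap between the fractions either. The labels give the animals no age and do not say whether each library came from a separate mouse, so p-values measure the spread between these libraries. Sca-1+ library 15 and Sca-1- library 16 share a further number in their labels and may come from 1 mouse, and treating them as a block changed no call of the genes described here. The libraries are named by the number that ends their label, 7, 13, 15 and 19 for Sca-1+ and 8, 10, 14, 16 and 22 for Sca-1-. The label of Sca-1+ library 13 carries a tag that opens with CD45. Those of Sca-1- libraries 14 and 22 carry the same tag, and library 10 carries a shorter form of it. The labels of libraries 8, 15, 16 and 19 read wt instead, and that of library 7 has neither. The paper names its B6 mice by their form of CD45, and the tag may give that form. It is more frequent among the Sca-1- libraries than among the Sca-1+ libraries. The labels do not say whether the tag marks a separate group of mice, and its effect was not tested.

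ECs are held together by adherens junctions, built on VE-cadherin and its catenins, and by tight junctions, built on claudins, occludin and the JAM family and anchored to actin by ZO and cingulin proteins. CD31 lies at the same cell borders but outside both structures, and is also carried by platelets and leukocytes. ESAM and JAM-A are likewise known from platelets as well as from endothelium, whereas VE-cadherin is the standard marker of endothelium alone.

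The sort and the labelled cell type were checked first. Ly6a, which encodes Sca-1, was counted at 1133 ± 187 CPM (SD, n = 4), where CPM is counts scaled to library size with edgeR's TMM factors, in Sca-1+ libraries and 0.678 ± 0.524 CPM (SD, n = 5) in Sca-1- libraries. The total reads counted per library lay between 21581653 and 25959818, at which 3 reads, taken as the floor, were worth 0.0996 to 0.209 CPM. A list of 21 general endothelial markers, which holds none of the 10 genes, took 1.14% to 1.38% of the reads of Sca-1+ libraries and 0.0163% to 0.0774% of those of Sca-1- libraries, and all 21 were higher in Sca-1+. Tie1 and Kdr, endothelial receptor kinases, were at 56.2 to 97.3 CPM and 43.7 to 89.8 CPM in Sca-1- libraries, low but not at 0. A list of 16 megakaryocyte markers took 0.0198% to 0.0260% of the reads in Sca-1+ and 3.45% to 7.53% in Sca-1-, and all 16 were lower in Sca-1+. Arterial markers were higher in Sca-1+ in 8 of 8 cases, sinusoidal markers in 7 of 8 with Lyve1 lower, and smooth muscle and pericyte markers in 7 of 10, while leukocyte markers were lower in 10 of 12 and erythroid markers in 8 of 10. Ptprc, which encodes CD45, was at 0 to 2.56 CPM in Sca-1+ and 17.2 to 47.8 CPM in Sca-1- libraries. The markers thus went against the label of endothelial cells in the Sca-1- libraries, which are called below by their sort alone. In bulk RNA fewer cells of a type and less RNA per cell cannot be told apart. Libraries 8 and 10 had the lowest TMM factors, 0.671 and 0.581 against 0.988 to 1.22 in the other libraries, and the values that rest on them most are also given without them, an alternative added after the values were seen.

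Of the 9 genes tested, 6 were higher in Sca-1+ libraries (Cdh5, Jam2, Tjp1, Cldn5, Cgnl1 and Jam3) and none was lower, with edgeR's quasi-likelihood test and a threshold of 0.05 on the p adjusted over all genes. Of all 15937 genes, 23.3% were higher and 21.4% were lower by the same test. DESeq2 and limma voom also called 6 of the 9 higher and 0 lower, and no edgeR estimate of the 9 was below 0. In those 6 genes every Sca-1+ library was above every Sca-1- library, a separation found for 24.8% of all genes tested. The median difference of the 9 was 3.43 on the log2 scale, against 0.07 over all genes tested. The genes were chosen with earlier results of these data known, so these comparisons with all genes only describe them. Pecam1, Esam and F11r overlapped between the fractions.

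**Figure D1:**
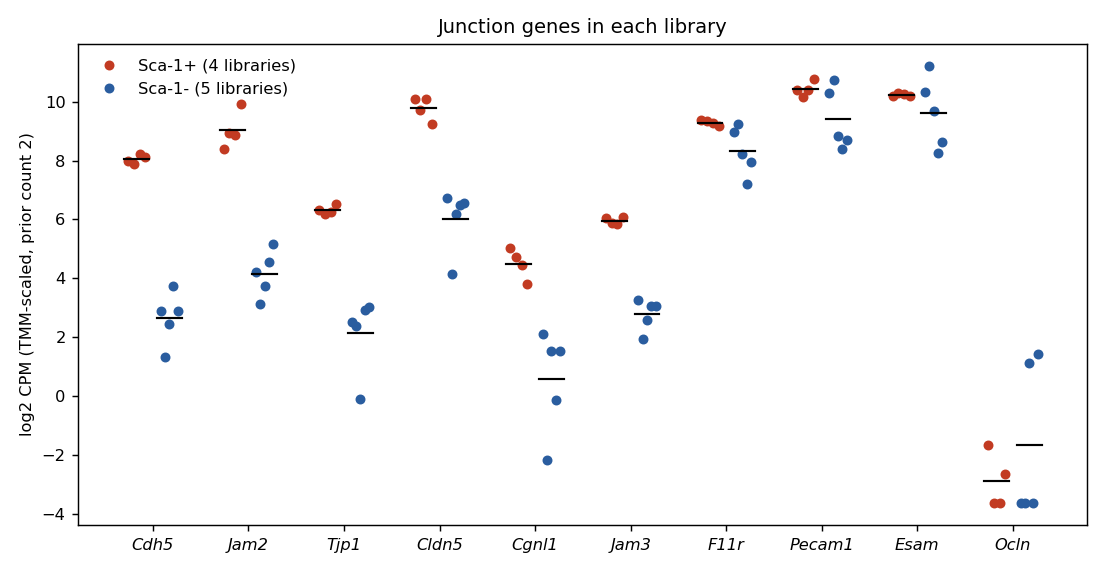
Level of each of the 10 genes in each library, as log2 CPM, with 1 point per library and a black line at the mean of the 4 Sca-1+ (red) and the 5 Sca-1- (blue) libraries. The 6 genes on the left separate the fractions fully, whereas F11r, Pecam1 and Esam overlap and Ocln is near the bottom of the scale in both.

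Cdh5 (ENSMUSG00000031871, GRCm38 chromosome 8 from 104101625 to 104144511) encodes VE-cadherin, the adhesion receptor of the endothelial adherens junction. It was counted at 251, 235, 297 and 275 CPM in Sca-1+ libraries 7, 13, 15 and 19, and at 7.39, 2.44, 5.39, 13.1 and 7.33 CPM in Sca-1- libraries 8, 10, 14, 16 and 22. The Sca-1+ libraries lay close together, and the lowest of them was far above the highest Sca-1- library, number 16. The mean was 264 ± 27.2 CPM (SD, n = 4) against 7.14 ± 3.92 CPM (SD, n = 5), which is 36.8-fold, and the log2 fold change was 5.20 (standard error 0.43, 95% interval 4.24 to 6.16, edgeR adjusted p = 2.6e-05). This was the largest difference among the 9.

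Cldn5 (ENSMUSG00000041378, GRCm38 chromosome 16 from 18776847 to 18778262), a gene of 1 exon, encodes the main claudin of endothelial tight junctions. Its levels were 1098, 834, 1078 and 601 CPM in Sca-1+ libraries 7, 13, 15 and 19, and 105, 17.5, 72.8, 90.4 and 95 CPM in Sca-1- libraries 8, 10, 14, 16 and 22. Library 19 was the lowest of Sca-1+, and library 10 stood below the other Sca-1- libraries, which were close to each other. The means were 903 ± 234 CPM (SD, n = 4) and 76.2 ± 34.9 CPM (SD, n = 5), an 11.8-fold difference and 3.57 on the log2 scale (standard error 0.47, 95% interval 2.52 to 4.62, edgeR adjusted p = 0.00025).

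The promoters of Cldn5 and Tjp1, which were called higher, are shown beside that of F11r, which was not called though 1.72-fold higher by estimate. They are the 250 bases before the RefSeq start of each gene in GRCm38.p6, read 5′ to 3′ on the gene's strand, with each CpG in capitals. Cldn5 lies at chr16:18776597-18776846 on the plus strand, Tjp1 at chr7:65371245-65371494 on the minus strand, inside the longer span that the annotation gives this gene, and F11r at chr1:171437311-171437560 on the plus strand.
Cldn5: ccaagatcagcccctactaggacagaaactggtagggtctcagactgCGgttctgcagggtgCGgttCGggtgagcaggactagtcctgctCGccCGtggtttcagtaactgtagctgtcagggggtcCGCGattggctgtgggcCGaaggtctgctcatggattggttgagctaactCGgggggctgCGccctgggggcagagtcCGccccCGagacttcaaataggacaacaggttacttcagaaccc
Tjp1: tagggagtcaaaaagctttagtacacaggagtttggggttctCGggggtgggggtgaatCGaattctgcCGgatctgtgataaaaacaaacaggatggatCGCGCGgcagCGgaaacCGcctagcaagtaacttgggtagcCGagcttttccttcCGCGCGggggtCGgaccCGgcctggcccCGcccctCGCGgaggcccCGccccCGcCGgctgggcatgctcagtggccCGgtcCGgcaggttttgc
F11r: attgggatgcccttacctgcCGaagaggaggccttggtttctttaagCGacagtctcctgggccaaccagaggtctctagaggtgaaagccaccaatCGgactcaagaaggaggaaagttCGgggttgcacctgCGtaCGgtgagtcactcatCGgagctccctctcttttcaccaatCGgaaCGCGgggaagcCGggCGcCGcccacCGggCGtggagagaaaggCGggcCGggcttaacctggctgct
The Cldn5 window held 12 CpGs, that of Tjp1 22 and that of F11r 17, against a median of 6 over all 32851 windows of the table. Of all windows, 66.5% held fewer CpGs than that of Cldn5, 85.2% fewer than that of Tjp1 and 76.5% fewer than that of F11r. Windows were found for 5 of the 10 genes, the others being Cgnl1 with 20 CpGs and Ocln with 2 starts of 22 and 14 CpGs. Both strands were searched for CCGGAA and AGGAAG, forms of the ETS motif, and for AGATAA, a form of the GATA motif, which 12.0%, 29.5% and 9.99% of all windows held. Among these 5 genes the single match was CCGGAA in 1 Ocln window, 227 bases before the start.

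The JAM family divided. Jam2 (ENSMUSG00000053062, chromosome 16 from 84774123 to 84825928) encodes JAM-B, an immunoglobulin-like receptor of endothelial borders, and Jam3 (ENSMUSG00000031990, chromosome 9 from 27097384 to 27155421) encodes JAM-C, its binding partner. Both rose in Sca-1+, Jam2 more than Jam3, while F11r (ENSMUSG00000038235, chromosome 1 from 171437535 to 171464603), which encodes JAM-A, did not pass the test.

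Jam2 was counted at 337, 494, 470 and 972 CPM in Sca-1+ libraries 7, 13, 15 and 19, and at 18.4, 8.59, 13.3, 23.3 and 36.1 CPM in Sca-1- libraries 8, 10, 14, 16 and 22. Library 19 was above the other Sca-1+ libraries, yet the lowest Sca-1+ library was still far above every Sca-1- library. The log2 fold change was 4.83 (standard error 0.49, 95% interval 3.75 to 5.92, edgeR adjusted p = 5.8e-05), or 28.5-fold.

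Jam3 was at 66.0, 58.5, 57.3 and 67.4 CPM in the same Sca-1+ libraries and at 9.61, 3.77, 5.98, 8.33 and 8.35 CPM in the Sca-1- libraries. Relative to its mean it was the least spread of the 6 genes within both fractions, and its means were 62.3 ± 5.14 CPM (SD, n = 4) and 7.21 ± 2.33 CPM (SD, n = 5). The difference was 8.63-fold, a log2 fold change of 3.11 (standard error 0.28, 95% interval 2.49 to 3.73, edgeR adjusted p = 3.6e-05). Its exons overlap those of Gm48796 on the opposite strand, and since the strand setting of the counting is not given in the sources used here, its reads cannot be fully told apart from reads of that gene.

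F11r was at 658, 646, 617 and 571 CPM in the Sca-1+ libraries and at 506, 606, 301, 148 and 247 CPM in the Sca-1- libraries, in the orders given above. Library 10 lay within the Sca-1+ range, and the other Sca-1- libraries were below every Sca-1+ library, number 8 nearest to them. The log2 fold change was 0.79 (standard error 0.38, 95% interval -0.05 to 1.62, edgeR adjusted p = 0.11). Without library 10 it was 0.98 (edgeR adjusted p = 0.048), and without libraries 8 and 10 it was 1.42 (edgeR adjusted p = 0.0025).

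Ocln (ENSMUSG00000021638, chromosome 13 from 100496507 to 100552718) encodes occludin, a tight junction protein of epithelia and of barrier-forming vessels. Its reads numbered 7, 0, 0 and 2 in Sca-1+ libraries 7, 13, 15 and 19, and 0, 0, 49, 0 and 65 in Sca-1- libraries 8, 10, 14, 16 and 22. It was over the floor in 3 of the 9 libraries, the 2 highest being Sca-1-, at 2.08 and 2.65 CPM. In a library with no read the floor allows up to 0.0996 to 0.209 CPM, and no fold change is given. Of 6 epithelial keratin and Epcam markers, the sum took at most 0.000542% of the reads of any library.

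The 2 cytoplasmic members rose. Tjp1 (ENSMUSG00000030516, chromosome 7 from 65296165 to 65527781) encodes ZO-1, the scaffold that ties claudins and JAMs to actin. Its levels were 80.6, 73.3, 76.8 and 92.8 CPM in Sca-1+ libraries 7, 13, 15 and 19 and 5.65, 5.17, 0.848, 7.60 and 8.10 CPM in Sca-1- libraries 8, 10, 14, 16 and 22. The Sca-1+ libraries were nearly level, and library 14 stood below the other Sca-1- libraries. Its log2 fold change was 3.88 (standard error 0.51, 95% interval 2.74 to 5.02, edgeR adjusted p = 0.00024), or 14.7-fold.

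Cgnl1 (ENSMUSG00000032232, chromosome 9 from 71626509 to 71771602) encodes paracingulin, a junction protein that binds regulators of small GTPases. It was at 32.3, 26.2, 21.9 and 13.8 CPM in the Sca-1+ libraries and at 4.27, 0.140, 2.84, 0.830 and 2.81 CPM in the Sca-1- libraries, library 10 holding 2 reads of it, under the floor. The fractions did not overlap, but the spread within each was wide. The log2 fold change of 3.43 had the largest standard error of the 9, 0.71 (95% interval 1.85 to 5.01, edgeR adjusted p = 0.0030), and the fold was 10.8.

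**Figure D2:**
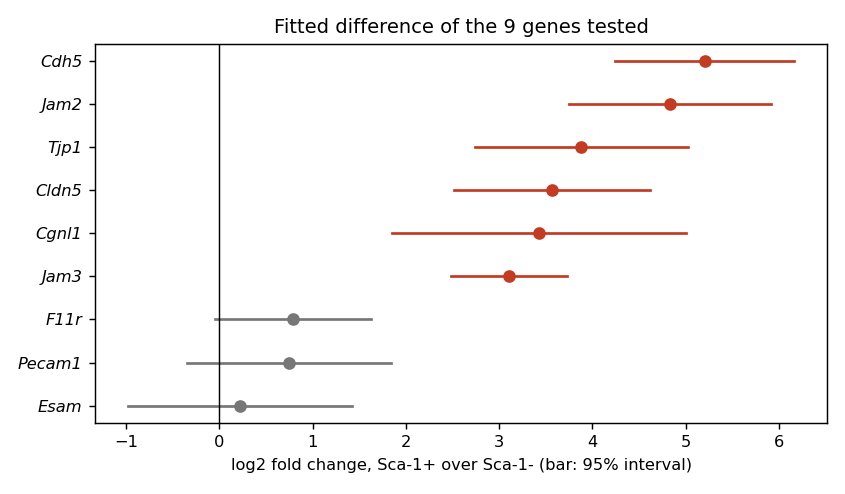
Fitted log2 fold change of the 9 genes tested, Sca-1+ over Sca-1-, as points with 95% intervals from edgeR's quasi-likelihood fit over 4 and 5 libraries. Red marks an adjusted p under 0.05. The 6 red genes lie between 3.11 and 5.20, and the intervals of F11r, Pecam1 and Esam include 0.

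Pecam1 (ENSMUSG00000020717, chromosome 11 from 106654217 to 106750628) encodes CD31, a homophilic adhesion receptor of the immunoglobulin family. It was counted at 1349, 1137, 1349 and 1760 CPM in Sca-1+ libraries 7, 13, 15 and 19, and at 1266, 1701, 461, 334 and 417 CPM in Sca-1- libraries 8, 10, 14, 16 and 22. Libraries 8 and 10 lay within the Sca-1+ range, and the other 3 Sca-1- libraries were below it. The means were 1399 ± 261 CPM (SD, n = 4) and 836 ± 613 CPM (SD, n = 5), 1.67-fold apart. The log2 fold change of 0.74 was within the spread between libraries (standard error 0.49, 95% interval -0.35 to 1.84, edgeR adjusted p = 0.25). It was 1.78 (edgeR adjusted p = 0.00041) without libraries 8 and 10, and 1.38 (edgeR adjusted p = 0.0043) when reads were scaled to library size alone, a scaling that moved the median of all genes from 0.07 to 0.43.

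Esam (ENSMUSG00000001946, chromosome 9 from 37528078 to 37538319) encodes an immunoglobulin-like protein of endothelial tight junctions. Its levels in Sca-1+ libraries 7, 13, 15 and 19 were 1159, 1262, 1216 and 1172 CPM, and those in Sca-1- libraries 8, 10, 14, 16 and 22 were 1271, 2376, 813, 303 and 391 CPM. The Sca-1+ libraries were almost equal, and the Sca-1- libraries lay on both sides of them, numbers 8 and 10 above and the others below. The log2 fold change was 0.22 (standard error 0.54, 95% interval -0.98 to 1.42, edgeR adjusted p = 0.76), with the sign lost when library 14 or 16 was left out. It was 1.26 (edgeR adjusted p = 0.015) without libraries 8 and 10, in which setting all 9 genes were called higher in Sca-1+, beside 3836 of the 16389 genes then tested.

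Divided by exon length, the levels had a different order in each fraction. In Sca-1+ libraries Cldn5 led with 638 ± 165 CPM per kb (SD, n = 4), followed by Esam with 419 ± 16.2, F11r with 234 ± 14.5 and Pecam1 with 225 ± 41.9 CPM per kb. F11r and Pecam1 were not separated, F11r being above in 3 of 4 libraries. Below them came Jam2 at 94.0 ± 45.9 and Cdh5 at 62.9 ± 6.47 CPM per kb, also in that order in 3 of 4 libraries, and then Jam3, Tjp1, Cgnl1 and Ocln, at 19.5, 10.4, 3.0 and 0.0187 CPM per kb, each above the next in all 4 libraries. In Sca-1- libraries Esam led with 360 ± 295 CPM per kb (SD, n = 5), then F11r with 136 ± 71.0 and Pecam1 with 134 ± 98.4, whose order held in 3 of 5 libraries. Cldn5 came next, with 53.8 ± 24.6 CPM per kb, and Pecam1 was above it in 3 of 5 libraries. Jam2, Jam3, Cdh5, Tjp1, Cgnl1 and Ocln followed at 3.30, 2.25, 1.70, 0.701, 0.278 and 0.224 CPM per kb, where Jam3 was above Cdh5, Cdh5 above Tjp1 and Tjp1 above Cgnl1 in 4 of 5 libraries each. Without libraries 8 and 10 the Sca-1- order began with Esam at 175 ± 95 CPM per kb (SD, n = 3), F11r at 87.1 ± 29.2, Pecam1 at 64.9 ± 10.3 and Cldn5 at 60.8 ± 8.28. Of the summed level per kb of the 10 genes in a library, Cldn5 made up 26.7% to 43.2% in Sca-1+ libraries and from 0.916% in library 10 to 22.1% in library 16 among Sca-1- libraries. Esam made up 22.5% to 27.1% in Sca-1+ and from 36.3% in library 22 to 61.6% in library 10 in Sca-1-.

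To set the sort marker against the other genes without any scaling between libraries, the reads of each gene were divided by those of Pecam1 in the same library. The log2 ratio was compared between fractions by enumerating the 126 ways to split 9 libraries into 4 and 5, a two-sided exact permutation test whose smallest possible p is 0.0159. In all, 17 ratios to Pecam1 or Cdh5 were tested, and their p-values are not adjusted. The ratio to Pecam1 was higher in every Sca-1+ library than in every Sca-1- library for Cdh5, Jam2, Tjp1, Cgnl1, Cldn5 and Jam3, by 4.36, 3.85, 3.17, 2.98, 2.72 and 2.14 on the log2 scale (exact permutation p = 0.0159 for each). These are 20.5-fold for Cdh5 and 4.41-fold for Jam3 at the ends of the range. The sizes depended on library 10, without which they were 3.69, 3.25, 2.90, 1.90, 1.91 and 1.59 in the same gene order (exact permutation p = 0.029 for each). Without libraries 8 and 10 they were 3.24, 2.77, 2.63, 1.78, 1.57 and 1.27, and each exact permutation p was 0.057, the smallest that 4 against 3 libraries allow. For F11r the difference was -0.08 (exact permutation p = 0.75) and for Esam -0.42 (exact permutation p = 0.17), and both overlapped. The F11r value changed sign with Sca-1+ library 19 or Sca-1- library 14 left out, and without Sca-1+ library 13 the Esam ratio was -0.53 (exact permutation p = 0.036).

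Per read of Cdh5, libraries 7, 13, 15 and 19 held 5.39, 4.84, 4.55 and 6.40 reads of Pecam1. The Sca-1- libraries 8, 10, 14, 16 and 22 held 171, 696, 85.5, 25.4 and 57.0. The Sca-1+ libraries agreed within a narrow range, and every Sca-1- library was above it, library 10 furthest and library 16 nearest. These are ratios of reads, meant to compare libraries and not the 2 genes.

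**Figure D3:**
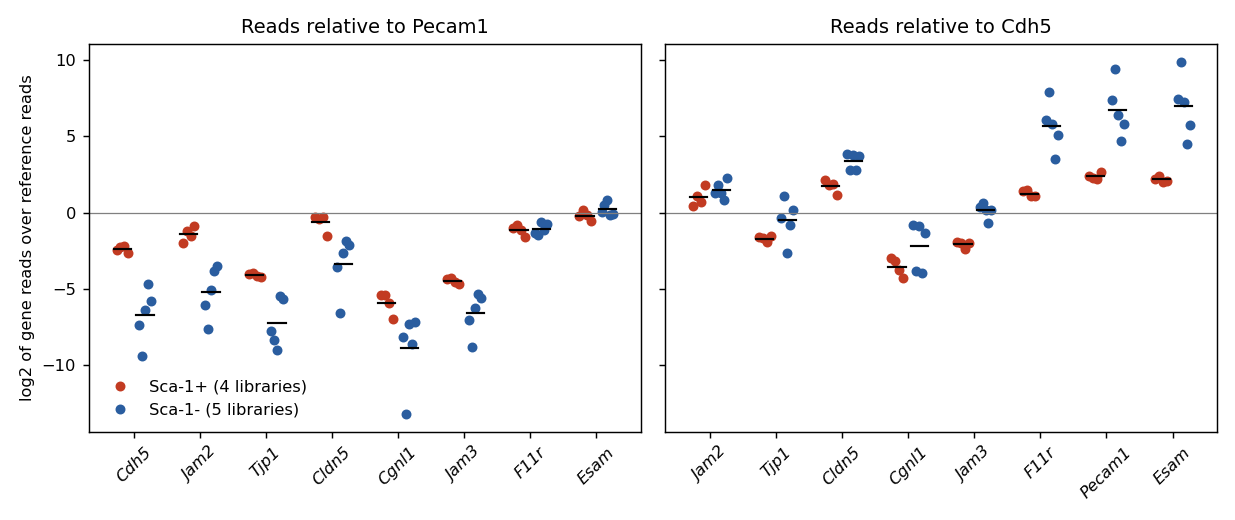
Log2 of the reads of the 9 tested genes over those of Pecam1 (left) or Cdh5 (right) in the same library, 0.5 added to each count, with 1 point per library and lines at the means of 4 Sca-1+ (red) and 5 Sca-1- (blue) libraries. On the left only F11r and Esam overlap, and on the right Jam2, Tjp1 and Cgnl1 do.

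Relative to Cdh5 the genes that rose differed in whether the fractions overlapped. The ratios of these genes were not tested against each other. The ratio of Jam2 to Cdh5 differed by -0.51 between Sca-1+ and Sca-1- on the log2 scale (exact permutation p = 0.24), that of Tjp1 by -1.19 (exact permutation p = 0.13) and that of Cgnl1 by -1.38 (exact permutation p = 0.19), all with overlap. Without library 14 the Tjp1 ratio was -1.72 (exact permutation p = 0.029). Cldn5 and Jam3 were lower relative to Cdh5 in every Sca-1+ library than in every Sca-1- library, by -1.64 and -2.22 (exact permutation p = 0.0159 for each). The Sca-1- libraries therefore held more reads of Cldn5 and of Jam3 per read of Cdh5, between 0.634 and 1.54 for Jam3 against 0.193 to 0.263 in Sca-1+. For Esam and F11r the ratio to Cdh5 fell by 4.77 and 4.44 (exact permutation p = 0.0159 for each). The Esam value was -4.04 without library 10 and -5.38 without library 16, and without libraries 8 and 10 the Esam and F11r values were -3.64 and -3.55. For Ocln the ratio differed by -2.64 to Pecam1 (exact permutation p = 0.33) and by -7.0 to Cdh5 (exact permutation p = 0.0159). Its reads were 0 in 5 of 9 libraries, so these 2 values are set largely by the 0.5 added to each count.

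Within the Sca-1- fraction the genes varied in distinct ways. Pecam1, Esam and F11r shared the order 10, 8, 14, 22, 16 from highest to lowest CPM, which was also the order of Itga2b, the megakaryocyte integrin subunit CD41, at 23281, 18340, 8190, 6607 and 5539 CPM. As a percentage of the Itga2b reads of the same library, Pecam1 reads were 6.90, 7.31, 5.63, 6.04 and 6.32 in libraries 8, 10, 14, 16 and 22. Esam reads were 6.93, 10.2, 9.93, 5.47 and 5.93 percent and F11r reads 2.76, 2.60, 3.68, 2.67 and 3.74 percent. From the lowest to the highest library these shares spanned 1.30-fold for Pecam1, 1.87-fold for Esam and 1.44-fold for F11r. The Pecam1 level itself spanned 5.09-fold with TMM scaling and 2.54-fold with library size alone. Against the reads of Pf4, a platelet chemokine gene and megakaryocyte marker, the shares spanned 3.06-fold for Pecam1, 3.26-fold for Esam and 1.67-fold for F11r. In Sca-1+ libraries, where Itga2b was at 9.87 to 11.7 CPM, Pecam1 reads were 10843 to 17831 percent of those of Itga2b.

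Cdh5, Cldn5, Jam2, Jam3 and Cgnl1 were instead lowest in library 10, which was highest for Itga2b and lowest for the general endothelial list. They were not alike at the other end, where Cldn5, Jam3 and Cgnl1 were highest in library 8 and Jam2 in library 22. Tjp1 was lowest in library 14 and highest in library 22. Cdh5 was highest in library 16, where Itga2b was lowest. Its reads were 0.0403, 0.0105, 0.0658, 0.237 and 0.111 percent of Itga2b in libraries 8, 10, 14, 16 and 22. That share spanned 22.6-fold, and the share of Pf4 reads spanned 15-fold. With library size alone as the scale, Esam, F11r and Itga2b kept their order and Pecam1 had 22 before 14. Cdh5, Cldn5, Jam2, Jam3 and Cgnl1 were again lowest in library 10. Pf4 had the Itga2b order with TMM, but the order 14, 8, 22, 10, 16 with library size alone. The low TMM factors of libraries 8 and 10 raise the CPM of every gene there. How many of all genes share the Itga2b order was not counted. The orders rest on 5 libraries that share their scaling, and whether the megakaryocyte transcripts have a part in the Pecam1, Esam and F11r levels was not tested.

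**Figure D4:**
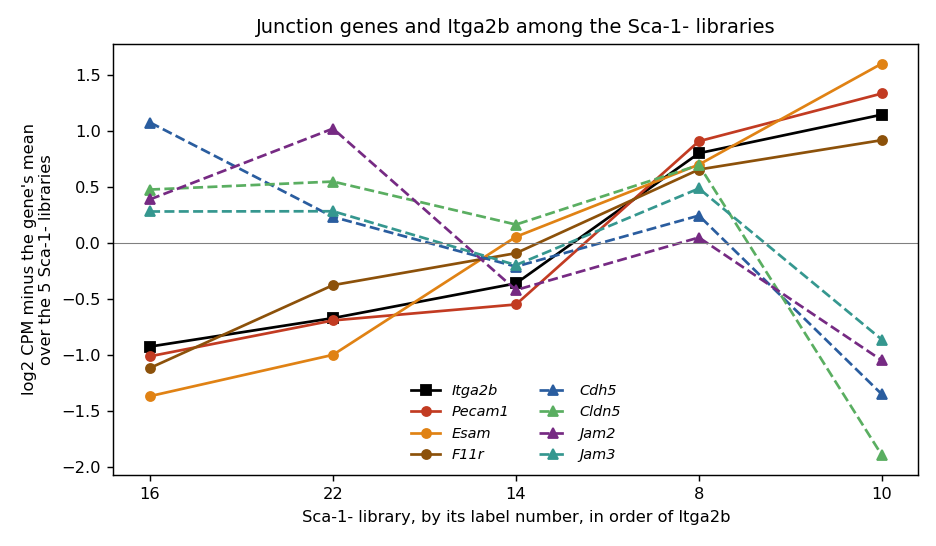
Log2 CPM of 7 of the junction genes and Itga2b in the 5 Sca-1- libraries, each as the difference from that gene's mean over the 5, with libraries placed from the lowest to the highest Itga2b. Solid lines (Pecam1, Esam, F11r, Itga2b) go up to library 10, and dashed lines (Cdh5, Cldn5, Jam2, Jam3) are at their lowest there. Cgnl1, Ocln and Tjp1 are not drawn, and Tjp1 was lowest in library 14.

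The genes whose levels over the 9 libraries ran closest to Pecam1, by the root mean square difference of mean-centred log2 CPM among 5397 well-counted genes, were Slc6a6, a taurine transporter, at 0.18, Rhob, a small GTPase, at 0.21, Ceacam1, an adhesion molecule, at 0.23, Fcho2 at 0.26 and Mast4 at 0.27. Closest to Cdh5 were Robo4, an endothelial guidance receptor, at 0.28, Rgcc at 0.30, Tinagl1 at 0.35, 2610305D13Rik at 0.36 and Tmem44 at 0.36. Among the 10 junction genes the nearest to Pecam1 were F11r at 0.32 and Esam at 0.39, and the nearest to Cdh5 were Jam2 at 0.57 and Cldn5 at 0.91. The distance includes the step between the fractions, so it largely follows the fold changes and is not separate from them. Robo4 is also on the general endothelial list.

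The rest of the junction machinery was described by a list of 71 genes, of which 56 were tested, 26 were higher in Sca-1+, 16 were lower and 14 did not pass the test. The median difference of the 56 was 1.16 on the log2 scale. The shares called, 46.4% higher and 28.6% lower, stand beside 23.3% and 21.4% of all genes. This list too was chosen with earlier results of these data known.

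Among 15 adherens junction genes 10 were higher and 2 lower. Ptprb, the VE-cadherin-associated phosphatase VE-PTP, rose by 5.34 (edgeR adjusted p = 0.00023), from 5.53 ± 3.18 CPM (SD, n = 5) to 226 ± 26.1 CPM (SD, n = 4), and Afdn, the nectin-binding scaffold afadin, rose by 4.43 (edgeR adjusted p = 9.0e-05). Vcl, the actin linker vinculin, fell by 3.09 (edgeR adjusted p = 0.00098), from 526 ± 350 CPM (SD, n = 5; 280 ± 80.1, n = 3, without libraries 8 and 10) to 61.7 ± 15.7 CPM (SD, n = 4). The other lower gene, Cdh1, the epithelial cadherin, was named after its values were seen, and its 53, 123, 268, 3091 and 2 reads in libraries 8, 10, 14, 16 and 22 overlapped the 0 to 24 reads of the Sca-1+ libraries. Of 4 receptors of endothelial borders 3 were higher, Mcam by 5.67 and Icam2 by 4.03 among them (edgeR adjusted p = 3.1e-05 and 9.9e-05).

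Of 16 other claudins only 5 were tested. Cldn15 was higher by 5.68 (edgeR adjusted p = 0.0015) at 35.6 ± 11.4 CPM (SD, n = 4) in Sca-1+, and Cldn13 was lower by -3.18 (edgeR adjusted p = 0.00089). Among 6 other tight junction membrane proteins 3 were higher, including Cxadr at 3.43 and Marveld1 at 1.21, and no edgeR estimate of the 6 was below 0. The 14 other scaffolds split into 6 higher and 7 lower. Amotl1 and Mpdz rose by 3.43 and 2.96, whereas Pard6g, a subunit of the polarity complex, differed by -2.46 (edgeR adjusted p = 0.00015).

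The 9 regulators of junctions by Rap1 and the CCM complex had 3 higher and 3 lower. Rasip1 and Rapgef3, which act with Rap1 at endothelial junctions, rose by 4.61 and 4.21, and Rap1b and Rap1a themselves were lower by -3.43 and -2.86 (edgeR adjusted p = 0.00049 and 0.0017). Rap1b, known as the main Rap1 of platelets, was at 869 ± 58.0 CPM (SD, n = 4) in Sca-1+ and 9395 ± 5624 CPM (SD, n = 5) in Sca-1-, or 5702 ± 2182 CPM (SD, n = 3) without libraries 8 and 10. All 3 phosphatases that bind the CD31 tail were lower in Sca-1+, Ptpn6 (SHP-1) by -4.95 and Ptpn11 (SHP-2) by -3.48 (edgeR adjusted p = 0.00035 and 6.3e-05). Cxadr, Afdn, Vcl, Mcam, Rasip1, Rapgef3 and Ptpn6 share exon positions with another gene, and their counts are uncertain to that extent. The running numbers that open the labels do not overlap between the fractions, so if they mark a handling batch it cannot be told apart from Sca-1.

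**Figure D5:**
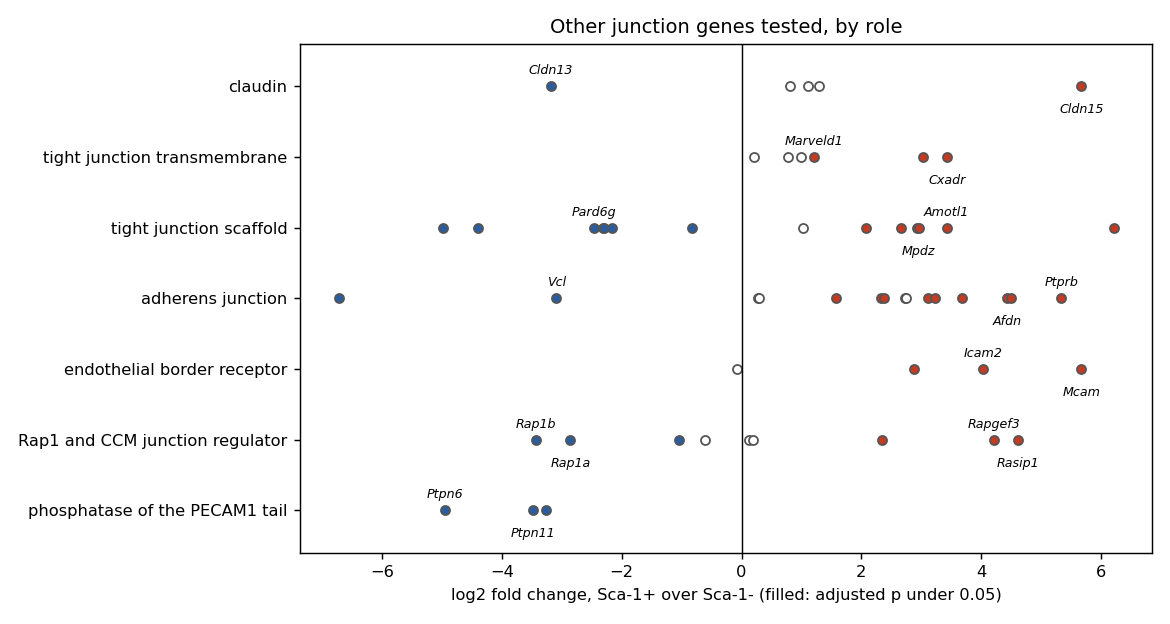
Log2 fold change, Sca-1+ over Sca-1-, of the 56 other junction genes tested, with 1 point per gene in a row per role. Filled points have an adjusted p under 0.05, 26 higher (red) and 16 lower (blue), and open points do not. The 3 phosphatases are all lower, and the scaffold and Rap1 rows hold genes on both sides of 0.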

How the data were processed

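RNA-seq was measured in 4 Sca-1+ and 5 Sca-1- libraries of sorted BM cells, grouped by the deposited labels. Per the labels, RNA was extracted with the miRNeasy micro Kit and libraries were made with the SMART-Seq v4 Ultra Low Input kit, which adds no molecular identifiers. PCR copies are therefore among the counts, and the floor covers counting error only. The authors deposited raw read counts per gene, not normalized, and the submitters' processing notes name STAR, featureCounts and mm10, without versions. Strand use is not given in the sources used here.

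The analysis used edgeR 4.0.16 under R 4.3.3, with filterByExpr at its defaults (minimum count 10, total 15), TMM, the quasi-likelihood F-test, two-sided, and Benjamini-Hochberg adjustment over 15937 genes at 0.05. The common dispersion was 0.301. Standard errors came from the F statistic. Log2 CPM used a prior count of 2, and ratios added 0.5 to each count. Exact permutation tests used scipy 1.17.1. Lengths, coordinates and overlaps came from GENCODE M21 (GRCm38), in which 45143 of the 46078 identifiers were found, and promoters from RefSeq. Of 173 listed symbols 172 matched, Cldn25 being the exception.

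The members and lists were chosen with earlier results of these data known. The rule for other named genes took, in each role group, the 2 highest and 2 lowest log2 fold changes with an adjusted p under 0.05, no overlap between fractions and an average log2 CPM of at least 3, the defining markers of each list, and the 5 genes nearest to Pecam1 and to Cdh5 with an average log2 CPM of at least 5. Some results that this rule names are not reported here. The scripts were tested on simulated data. Alternatives changed the scaling, the filter, the test (DESeq2 1.42.0, limma 3.58.1 voom), the robustness, the block and the libraries included. No replicate number occurs in both fractions. Libraries 15 and 16 share another number, and end numbers that follow each other were treated as 3 pairs in one alternative.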

Additional observations from a re-analysis of the deposited data

Results flagged for a closer look

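In Sca-1- library 10 the log2 CPM of Cldn5 was 4.13, against 6.19 to 6.72 in the other 4 Sca-1- libraries, and the gap to the nearest was 0.795 of the whole range. In Sca-1- library 14 the log2 CPM of Tjp1 was -0.11, against 2.39 to 3.03 in the other 4, with a gap of 0.796 of the range. Both exceeded Dixon's 95% critical value for a single sample far from the rest. They are 2 of 36 sets of libraries examined, and chance alone marks about 1 in 20. Library 10 was also the lowest for the general endothelial list, and library 14 was not. The part of that list in either value was not tested.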

How the results depend on the processing

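The 6 genes called higher stayed called, with 0 lower, under DESeq2 size factors, upper-quartile scaling, library size, no filter, DESeq2, voom, robust estimates, both blocks and each library left out (6 to 7 higher, 0 lower). Scaling to the 21 general endothelial genes moved the median of all genes from 0.07 to -4.81, with 175 genes higher and 14404 lower. It left 0 of the 9 genes higher and 5 lower, and 2 of the other junction genes higher and 43 lower. Under it the log2 differences were -4.63 for Pecam1, -5.22 for Esam, -4.47 for F11r, -1.08 for Cldn5, -1.65 for Jam3, -0.97 for Tjp1 and -1.24 for Cgnl1, with Cdh5 at 0.58 and Jam2 at 0.21. Of these, Pecam1, Esam, F11r, Cldn5 and Jam3 were called lower, and Tjp1, Cgnl1, Cdh5 and Jam2 were not called. These shifts follow from the scale itself, which sets the endothelial list equal between fractions. Scaling to library size called 4158 genes higher and 2431 lower, against 3721 and 3416. With it F11r was at 1.36 (edgeR adjusted p = 0.0011) and 8 of the 9 were called. Esam lay between -0.020 and 0.72 with 1 library left out, below 0 without library 16 and, at -0.015, without library 14. The ratio of F11r to Pecam1 lay between -0.19 and 0.078 with 1 library left out, above 0 without library 19 and, at 0.035, without library 14. Ratios to Pecam1 that were lower in Sca-1+ numbered 0, and 1 (Esam) without Sca-1+ library 13. Without a filter Ocln differed by -3.49 (edgeR adjusted p = 0.19). Deviations correlated at 0.147 (7 and 8), 0.148 (13 and 14) and 0.0420 (15 and 16) within the 3 pairs of end numbers. Over all other pairs of a Sca-1+ and a Sca-1- library they lay between -0.191 and 0.0650. Pairs 7 with 8 and 13 with 14 were above every other pair, so the numbers may pair libraries, which the main tests do not model. With a block for the 3 pairs 2265 and 2075 genes were called higher and lower. Without that block 2768 and 2592 were called in the same 6 libraries, and no call of the 9 genes changed. Without Sca-1+ library 19 and Sca-1- library 10, chosen after the data were seen, 6 were higher and 0 lower. Without Sca-1- libraries 8 and 10, also chosen after the data were seen, 0 ratios to Pecam1 were called higher and 0 to Cdh5 lower, since the smallest p is then 0.057. Low counts limit what can be said of Ocln, and of Cgnl1 in library 10.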
